A study of Homo sapiens with 6 samples.

Results

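The cornified envelope scaffold was described through 10 genes: IVL, TGM1, TGM3, TGM5, PPL, EVPL, CSTA, CNFN, CDSN and SBSN. They were taken by symbol from a table of 46427 genes, and each of the 10 passed the filter on low counts that kept 17990 genes for testing. The RNA came from VK2/E6E7 cells, an epithelial line of the human vagina that carries the E6 and E7 oncogenes of a papillomavirus and is labelled wild type in every sample. Both groups grew in keratinocyte serum-free medium with epidermal growth factor, bovine pituitary extract and antibiotics, and each received its treatment for 6 h. The PBS group (n = 3) was given phosphate-buffered saline, and the HMU group (n = 3) Lactobacillus salivarius HHuMin-U, a lactic acid bacterium, at 1e8 CFU/mL. A single immortalised line in monoculture stands here for the vaginal lining, and n counts biological replicates of that line.

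In stratified squamous epithelium, cells that leave the basal layer build a cornified envelope, a sheet of cross-linked protein under the plasma membrane. The plakins envoplakin and periplakin and the rod-like protein involucrin line the membrane first, and transglutaminases then join glutamine to lysine side chains to fix these and later proteins into an insoluble shell. The vaginal lining is normally not keratinised like skin, but its upper layers make involucrin and other envelope proteins. The comparison of HMU with PBS asks what the bacterium did to the transcripts of these cells.

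Total counts ran from 64292566 to 65957584 over the 6 libraries. No pair of replicates agreed within sampling noise, with a chi-square per degree of freedom of 5.12 to 6.25 between PBS libraries and 14.4 to 118 between HMU libraries. HMU replicate 2 stood apart from the other HMU libraries along the second principal component, which held 10.8% of the variance. The mitochondrial share of counts was 5.54% to 6.13% in PBS and 6.95% to 7.17% in HMU libraries, and its part in the results was not tested. All 13 markers of stratified epithelium were tested, and their summed level was 77776 to 78723 CPM (normalised counts scaled by TMM to library size, in the usual CPM unit) in PBS and 80178 to 99323 CPM in HMU libraries. The 8 fibroblast markers summed to 136 to 140.0 CPM and 105 to 119 CPM, with COL1A1 at a mean of 117 and 96.1 CPM, THY1 at 16.3 and 12.2 CPM and DCN at 4.30 and 4.43 CPM, while the fibrillar collagen gene COL3A1 had at most 4 counts in a library. The 10 leukocyte markers summed to 64.5 to 67.4 CPM and 124 to 139.6 CPM, most of it from CD68; MS4A1 and FCGR3A had 0 counts in all 6 libraries, and the pan-leukocyte gene PTPRC had at most 11. The 6 endothelial markers summed to 1.08 to 1.22 CPM and 2.63 to 3.49 CPM. In bulk RNA, fewer cells of a type and less RNA per cell cannot be told apart.

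After HMU the envelope scaffold moved in parts. Involucrin, the transglutaminases TGM1 and TGM5, cystatin A, cornifelin, suprabasin and corneodesmosin were higher; periplakin was lower; envoplakin and TGM3 did not pass the test. By edgeR's quasi-likelihood fit over all genes, 7 of 10 members were called higher at an adjusted p under 0.05, against 25.0% of all tested genes. In the other direction 1 of 10 was called lower, against 25.3%. The median log2 fold change of the 10 was 1.76, and that of all tested genes was -0.003. The HMU values lay wholly above the PBS values for 7 members and wholly below for 1, where 62.3% of all tested genes did not overlap. On log2(TPM + 1), 7 members were called higher and 3 lower, PPL, EVPL and TGM3. On that scale 1975 of the 17990 tested genes were called higher and 9153 lower. Scaling mattered at the lower end. With library sizes only, the median of all tested genes moved to -0.28. On that scale 7 members were higher against 13.6% of all genes, and 3 were lower against 44.1%, since envoplakin and TGM3 joined periplakin.

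**Figure D1:**
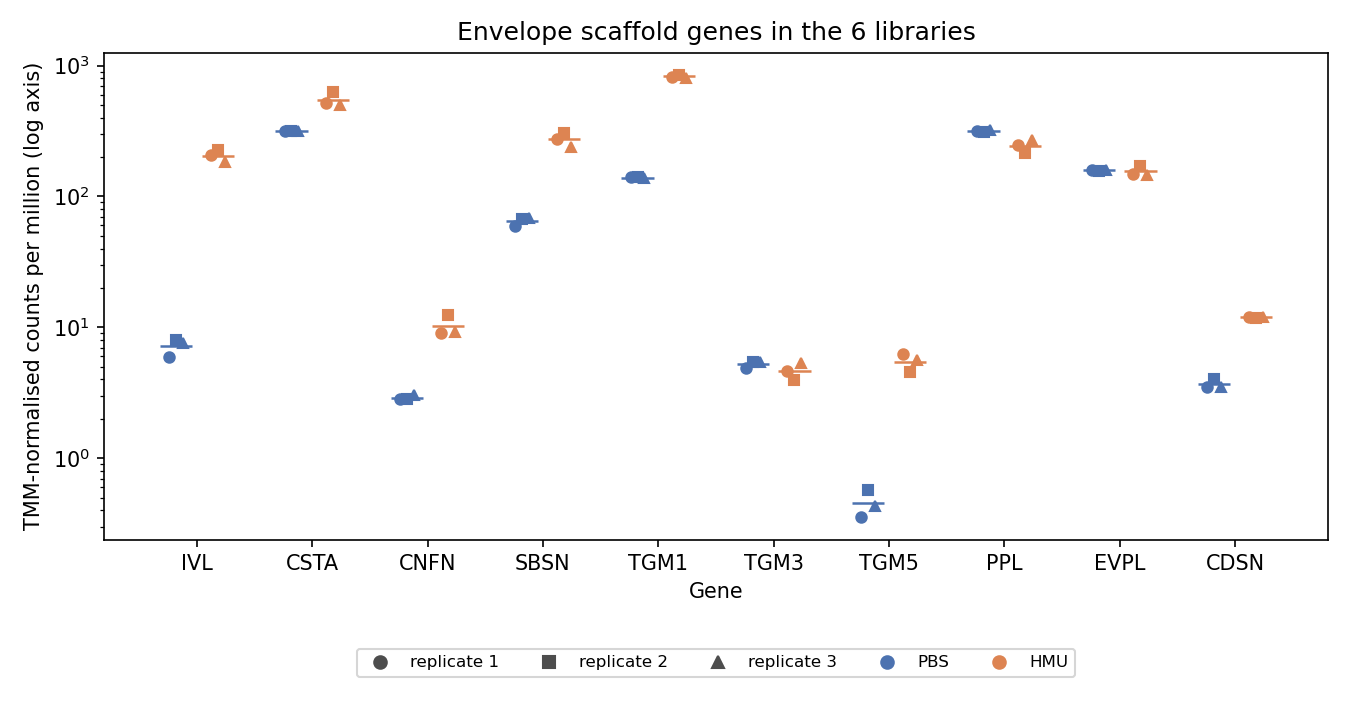
TMM-normalised CPM on a log axis for the 10 genes in the 3 PBS (blue) and 3 HMU (orange) libraries; marker shapes give the replicate and the short lines the group means. HMU points lie above all PBS points for 7 genes, below for PPL, and overlap them for TGM3 and EVPL.

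**Figure D2:**
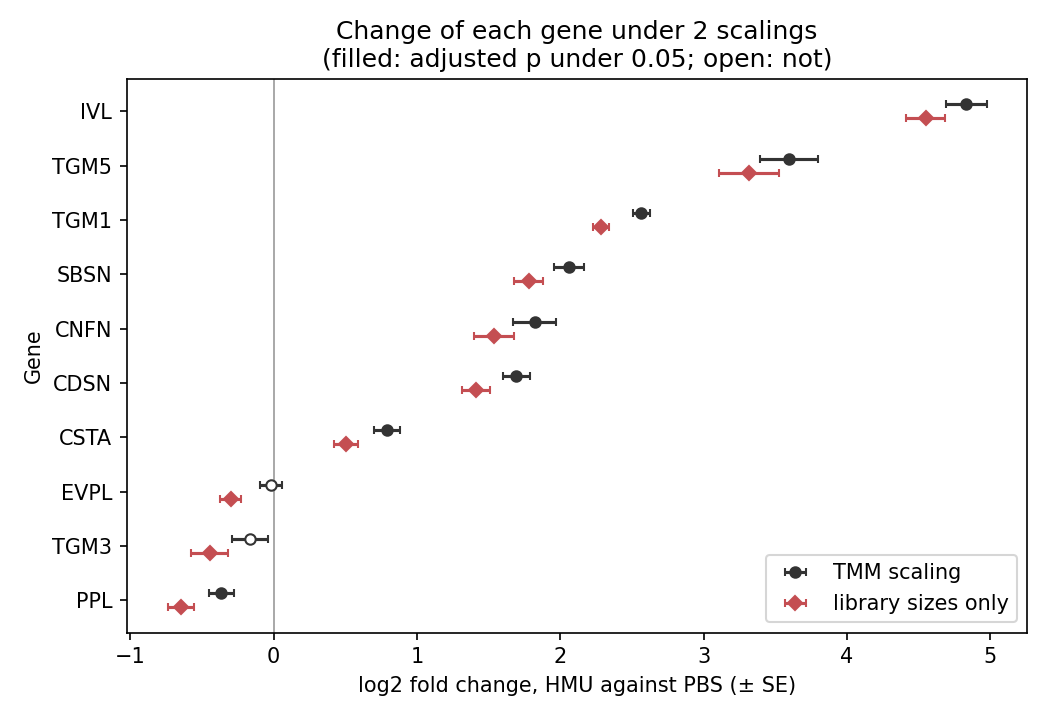
Fitted log2 fold change of HMU against PBS with its standard error, with TMM scaling (black circles) and with library sizes only (red diamonds); filled symbols passed an adjusted p of 0.05. Each gene sits about 0.28 lower with library sizes only, where EVPL and TGM3 also pass.

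Involucrin, the glutamine-rich rod that is among the first proteins cross-linked into the envelope, changed most. IVL (gene ID 3713, chromosome 1 from 152908546 to 152911886, GRCh38) stood at 5.95, 7.95 and 7.64 CPM in PBS replicates 1 to 3, and at 206, 224.5 and 184 CPM in HMU replicates 1 to 3. Every HMU library was thus far above every PBS library. The fitted change was 28.5-fold (log2 change 4.83 ± 0.14 SE, adjusted p = 3.8e-07 by edgeR). Among the 17990 tested genes, 94 had a larger fitted rise. Leaving out each library in turn gave log2 fold changes of 4.71 to 4.91.

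The RefSeq promoter table (GRCh38.p14) held a 300-base window, from 250 bases before to 50 after the annotated start, for 6 of the 10 members: IVL, SBSN, TGM5, CNFN, CDSN and TGM3. Exact matches were sought on both strands to AP-1 (TGANTCA), ETS (AGGAAG), NF-kB (GGANTTTCC), KLF (GGGTGGG), C/EBP (TTGCNNAA) and TATA box (TATAAA) letters, names that stand for families of transcription factors except for the last, which marks a core promoter element. The windows of IVL and SBSN, which rose, are shown here with that of TGM3, which did not pass the test, so that their letters can be set side by side. Among the 6 members with a window, IVL and SBSN were the only ones with AP-1 or ETS matches. TGM5, CNFN and CDSN rose too, and their windows, not shown, held neither. Capitals mark the AP-1, ETS and TATA box matches. The windows lie at chr1:152908296-152908595 on the plus strand for IVL, chr19:35528262-35528561 on the minus strand for SBSN and chr20:2295751-2296050 on the plus strand for TGM3, and each is written 5′ to 3′ along its gene.
IVL: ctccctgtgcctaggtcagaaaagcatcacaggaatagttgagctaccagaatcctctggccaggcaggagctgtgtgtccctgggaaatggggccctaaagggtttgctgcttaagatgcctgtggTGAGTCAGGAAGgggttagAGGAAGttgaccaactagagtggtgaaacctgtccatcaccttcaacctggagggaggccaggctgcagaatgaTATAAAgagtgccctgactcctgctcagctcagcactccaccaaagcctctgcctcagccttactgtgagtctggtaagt
SBSN: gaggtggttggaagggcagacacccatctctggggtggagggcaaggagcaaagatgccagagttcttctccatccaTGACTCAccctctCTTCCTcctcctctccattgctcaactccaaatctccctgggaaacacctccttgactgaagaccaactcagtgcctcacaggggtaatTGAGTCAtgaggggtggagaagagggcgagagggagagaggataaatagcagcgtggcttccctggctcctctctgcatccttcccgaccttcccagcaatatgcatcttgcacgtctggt
TGM3: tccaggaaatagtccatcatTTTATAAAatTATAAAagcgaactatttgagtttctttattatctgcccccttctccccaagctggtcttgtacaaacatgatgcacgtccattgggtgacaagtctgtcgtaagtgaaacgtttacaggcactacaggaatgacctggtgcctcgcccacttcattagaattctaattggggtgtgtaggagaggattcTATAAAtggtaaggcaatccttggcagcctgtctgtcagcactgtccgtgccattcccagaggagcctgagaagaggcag

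In the IVL window the AP-1 match ran from -123 to -117 relative to the start, and its last base was also the first base of an ETS match from -117 to -112. A further ETS match stood at -104 to -99, and a TATA box match at -30 to -25. The SBSN window held AP-1 matches at -173 to -167 and at -71 to -65, 102 bases apart, and an ETS match on the opposite strand at -160 to -155. An AP-1 match was present in 2 of the 6 members' windows and in 7.71% of all 35116 windows in the table, which belong to 27305 genes. An ETS match was in the same 2 windows and in 33.6% of all, and both together in 2.78% of all. The TGM3 window held no AP-1 or ETS match, and neither did those of TGM5, CNFN and CDSN, which rose. The TATA box matches of TGM3 included one at -30 to -25, the same place as in IVL. TATA box letters were in 11.5% of all windows. C/EBP letters were found for TGM5 and SBSN (10.5% of all windows) and KLF letters for CNFN and CDSN (19.6%). No member's window held the NF-kB letters, which 1.64% of all windows did. A match describes letters only, and binding was not measured.

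**Figure D3:**
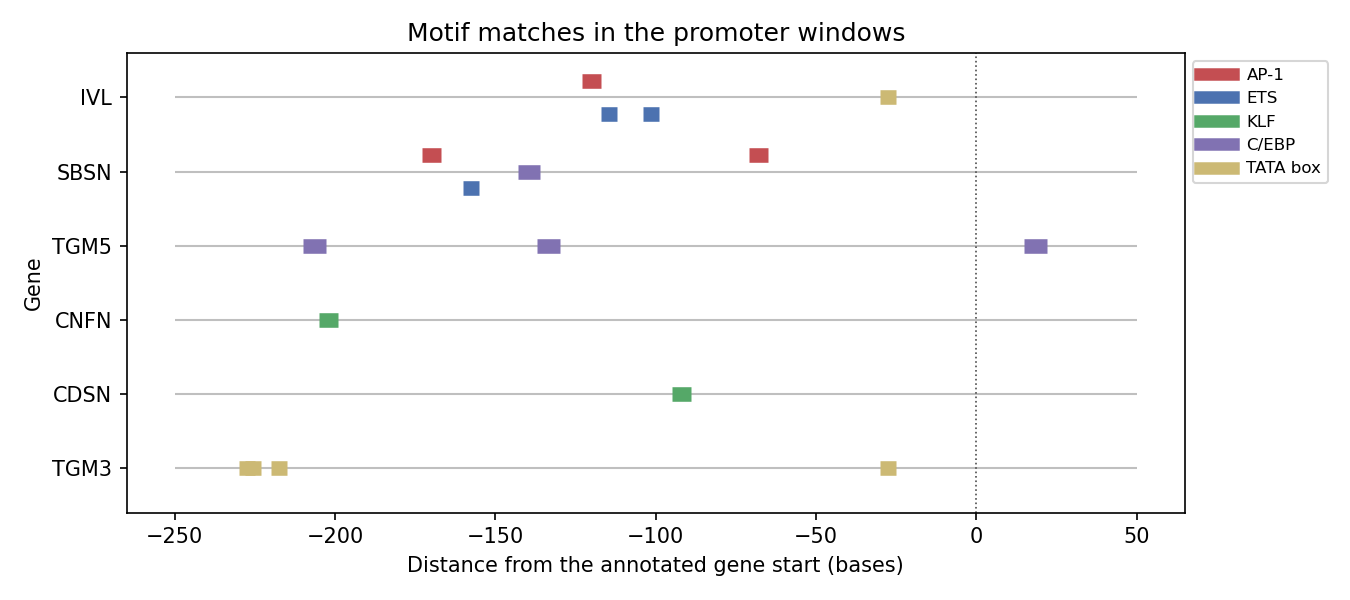
Positions of motif matches, in bases from the annotated gene start, in the promoter windows of 6 members; coloured blocks are matches and grey lines the window searched. IVL and SBSN carry AP-1 and ETS matches, TGM5, CNFN and CDSN carry neither, and TGM3 carries TATA box matches only.

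Cystatin A, suprabasin and cornifelin also rose, by less. CSTA encodes cystatin A, an inhibitor of cysteine proteases that is itself cross-linked into the envelope (gene ID 1475, chromosome 3 from 122325248 to 122341969). It stood at 319, 319 and 313.5 CPM in PBS libraries and at 521, 624 and 499 CPM in HMU libraries, with HMU replicate 2 the highest. The rise was 1.73-fold (log2 change 0.79 ± 0.091 SE, adjusted p = 0.00030 by edgeR). It was 0.51 with library sizes only and 0.38 on log2(TPM + 1), and passed in both. SBSN encodes suprabasin, a secreted protein of suprabasal keratinocytes (gene ID 374897, chromosome 19 from 35523367 to 35528311). Its levels were 59.8, 67.5 and 68.6 CPM in PBS and 273, 305 and 239 CPM in HMU libraries. The groups were far apart, at 4.17-fold (log2 change 2.06 ± 0.11 SE, adjusted p = 5.1e-06 by edgeR). CNFN encodes cornifelin, a small cysteine-rich envelope protein (gene ID 84518, chromosome 19 from 42387019 to 42390297). CNFN had 2.81, 2.85 and 3.04 CPM in PBS and 9.01, 12.4 and 9.28 CPM in HMU libraries, and HMU replicate 2 was again the highest. The rise was 3.53-fold (log2 change 1.82 ± 0.15 SE, adjusted p = 4.9e-05 by edgeR).

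CDSN encodes corneodesmosin, the adhesive protein added to desmosomes of the uppermost layers (gene ID 1041, chromosome 6 from 31115087 to 31120446). It was at 3.49, 4.05 and 3.51 CPM in PBS and at 11.9, 11.9 and 12.0 CPM in HMU libraries. On the TMM scale this was the tightest HMU group of the 10, though not in TPM. The rise was 3.23-fold (log2 change 1.69 ± 0.095 SE, adjusted p = 7.6e-06 by edgeR), and 0.96 on log2(FPKM + 1), where it passed. CDSN lies within PSORS1C1, which is annotated on the opposite strand, and how strand entered the counting is unstated in the sources used here. PSORS1C1 had 4.30 ± 0.453 CPM in PBS and 7.91 ± 0.952 CPM in HMU libraries (SD, n = 3; log2 change 0.88 ± 0.13 SE, adjusted p = 0.00098 by edgeR), so some reads may have been credited to either gene. The remaining overlaps were with long non-coding RNAs: LOC105372503 over TGM3 had 0 counts in every library, LOC105371064 over PPL at most 6, and LOC124903637 over PPL was not analysed here.

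The cross-linking enzymes split. TGM1 encodes the membrane-anchored transglutaminase 1 that ties involucrin to the envelope (gene ID 7051, chromosome 14 from 24249114 to 24263177). Its levels were 140.5, 140.1 and 138 CPM in PBS and 822, 845 and 809 CPM in HMU libraries. The separation was wide against very small spread, at 5.92-fold (log2 change 2.56 ± 0.060 SE, adjusted p = 1.8e-07 by edgeR). TGM5, whose enzyme also acts on involucrin and other envelope proteins and is lost in a peeling skin disease (gene ID 9333, chromosome 15 from 43232590 to 43266928), had 25, 41 and 31 counts in PBS and 369, 263 and 341 counts in HMU libraries. In normalised units this was 0.452 ± 0.111 CPM and 5.48 ± 0.834 CPM (SD, n = 3). All HMU libraries were above all PBS libraries, and the fitted rise was 12.1-fold (log2 change 3.59 ± 0.20 SE, adjusted p = 8.0e-06 by edgeR). The size of this rise shrank with the added constant at so low a PBS level, to 1.73 on log2(TPM + 1) and 1.12 on log2(FPKM + 1), and it passed in both. TGM3, a transglutaminase that proteolysis activates (gene ID 7053, chromosome 20 from 2296001 to 2341079), was at 4.92, 5.39 and 5.39 CPM in PBS and at 4.67, 3.97 and 5.33 CPM in HMU libraries. The groups overlapped, and its log2 fold change of -0.17 ± 0.13 SE did not pass (adjusted p = 0.30 by edgeR). With library sizes only it was -0.45 and passed (adjusted p = 0.021 by edgeR).

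The plakins, which form the platform under the membrane on which the envelope is built, did not rise. PPL encodes periplakin (gene ID 5493, chromosome 16 from 4882507 to 4937148) and stood at 317, 310.2 and 320 CPM in PBS and at 249, 216.5 and 269 CPM in HMU libraries. All HMU libraries were below all PBS libraries, with HMU replicate 2 the lowest. PPL fell to 0.776 of its PBS level (log2 change -0.37 ± 0.086 SE, adjusted p = 0.0096 by edgeR). The fall was -0.28 without HMU replicate 2, -0.65 with library sizes only and -0.76 on log2(TPM + 1), and it passed in each. EVPL encodes envoplakin, its dimer partner (gene ID 2125, chromosome 17 from 76006845 to 76027306), and was at 158, 156 and 159.6 CPM in PBS and at 149, 172 and 147 CPM in HMU libraries. Here the groups overlapped, and HMU replicate 2 was the highest library where it had been the lowest for PPL. The log2 fold change of EVPL was -0.02 ± 0.078 SE (adjusted p = 0.85 by edgeR), and it became -0.30 and passed with library sizes only (adjusted p = 0.0083 by edgeR). Without HMU replicate 1 or 3 the fitted value of EVPL was 0.01 and 0.02, also not called.

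Ratios of members within a library do not depend on how libraries are scaled. The ratio of PPL to EVPL in the deposited TPM (a level divided by transcript length and scaled to a fixed sum per library) was 2.08, 2.06 and 2.08 in PBS and 1.73, 1.30 and 1.90 in HMU libraries. It was thus lower in every HMU library, and most so in replicate 2. The ratio of IVL to TGM1 was 0.0656 ± 0.0101 in PBS and 0.316 ± 0.0249 in HMU libraries (SD, n = 3), 4.84 times higher. That of TGM1 to TGM3 went from 25.7 ± 1.59 to 174 ± 29.6, and that of TGM5 to TGM1 from 0.00306 ± 0.000814 to 0.00662 ± 0.000838. For each of these 4 ratios the groups did not overlap, and the two-sided exact permutation p was 0.1, the smallest that 3 libraries against 3 allow (0.1 after adjustment over the 4).

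Set per length, the order of the members changed. In PBS libraries CSTA led with 1003 ± 5.74 TPM (SD, n = 3, as for the TPM levels that follow) and made up 70.6% of the summed TPM of the 10. TGM1 and PPL came next with 119.6 ± 0.609 and 119 ± 2.25 TPM, and their values overlapped. SBSN had 94.1 ± 7.24, EVPL 57.4 ± 0.878, CNFN 12.0 ± 0.570, IVL 7.84 ± 1.22, TGM3 4.66 ± 0.284, CDSN 3.38 ± 0.30 and TGM5 0.367 ± 0.0991 TPM; no neighbours in this order overlapped apart from TGM1 and PPL. Involucrin was thus the seventh of the 10 in PBS. In HMU libraries it was the fourth.

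After HMU, CSTA stayed first with 1307 ± 61.6 TPM but at 53.0% of the sum. TGM1 followed with 536 ± 27.6, SBSN with 293 ± 15.8 and IVL with 169 ± 6.08 TPM, and all of these lay above PPL with 70.3 ± 12.5 and EVPL with 42.7 ± 1.05 TPM. CNFN had 31.5 ± 3.54 and CDSN 8.32 ± 0.633 TPM. TGM5 and TGM3 closed the order with 3.56 ± 0.598 and 3.16 ± 0.678 TPM, and their values overlapped. Among all 46427 genes IVL moved from rank 9717 to rank 749 by mean TPM, TGM1 from 1115 to 240, and CSTA from 121 to 105. The summed TPM of the 10 was 1405 to 1430 in PBS and 2441 to 2511 in HMU libraries.

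**Figure D4:**
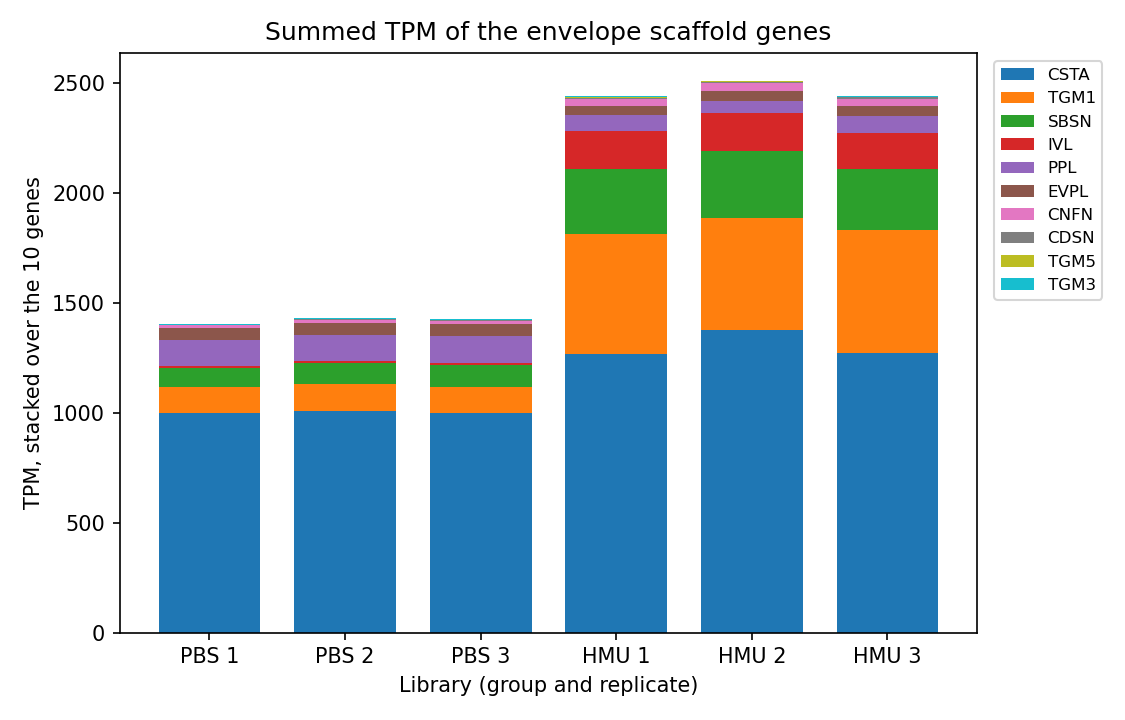
Deposited TPM of the 10 genes stacked for each library, with the axis from 0. The total is 1405 to 1430 in the PBS libraries and 2441 to 2511 in the HMU libraries, and the CSTA, TGM1, SBSN and IVL blocks are taller after HMU while the PPL and EVPL blocks are shorter.

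Library by library, the members did not move as one within the HMU group. On the TMM scale HMU replicate 2 was the highest HMU library for 6 members (IVL, TGM1, CSTA, CNFN, SBSN and EVPL) and the lowest for the other 4. In TPM it was the highest for 4 and the lowest for 5. Without HMU replicate 2 the calls of all 10 members were the same, with log2 fold changes of 4.76 for IVL, 2.55 for TGM1, 0.69 for CSTA and 3.71 for TGM5.

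Other genes of the pathway were read from lists, and all shares are to be set against the 25.0% and 25.3% of tested genes called higher and lower. With library sizes only these shares were 13.6% and 44.1%. Of the other 6 transglutaminase family genes, 2 were tested and both rose. TGM2, the tissue transglutaminase found in many cell types, went from 1.82 ± 0.186 to 73.6 ± 9.54 CPM, or 40.3-fold (log2 change 5.33 ± 0.14 SE, adjusted p = 2.6e-07 by edgeR). By TPM, TGM2 with 27.0 ± 4.79 remained below TGM1 after HMU. TGM4, known as the prostate transglutaminase, went from 1.72 ± 0.0900 to 3.95 ± 0.342 CPM (adjusted p = 0.00014 by edgeR). TGM6, F13A1 and EPB42 had 0 counts in all libraries, and TGM7 had 7 counts in 1 HMU library only.

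Of 41 other envelope precursor genes 21 were tested, of which 18 rose and 2 fell, with a median log2 fold change of 2.37. The 2 that fell were FLG and TCHH, and 1 gene was lower without PBS replicate 2 and without PBS replicate 3. SPRR2F, a small proline-rich cross-bridging protein whose near-identical relatives make the split of reads uncertain, went from 0.191 ± 0.0279 to 13 ± 1.83 CPM. SPRR2D of the same family went from 15.8 ± 0.740 to 438 ± 68.2 CPM, and SPRR1B, the gene of the list with the highest TPM averaged over all 6 libraries but not in PBS alone, from 356.5 ± 16.6 to 1161 ± 140.4 CPM (log2 change 1.70 ± 0.097 SE). Filaggrin, the late skin precursor, fell from 3.49 ± 1.12 to 1.62 ± 0.543 CPM (FLG log2 change -1.10 ± 0.31 SE, adjusted p = 0.020 by edgeR). Its groups nearly met, at 2.205 CPM in PBS replicate 1 and 2.193 CPM in HMU replicate 3. Loricrin, the main envelope protein of skin, was at only 0.546 ± 0.139 and 0.992 ± 0.302 CPM (LORICRIN log2 change 0.85 ± 0.28 SE, adjusted p = 0.038 by edgeR). FLG, TCHH and LORICRIN were picked out after their values were seen.

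Around IVL on chromosome 1, SPRR4, SPRR1A, SPRR3 and SPRR1B are among the 5 nearest protein-coding genes at higher coordinates, 56864 to 119317 bases away, and all 4 rose. Their log2 fold changes were 4.0 ± 0.30, 2.23 ± 0.097, 0.86 ± 0.11 and 1.70 ± 0.097 (SE). The value for SPRR4 rests on 3, 4 and 7 counts in PBS libraries, and its mean in HMU libraries was 1.07 CPM. SPRR5, the nearest on that side, was not analysed here. On the other side SMCP, LCE6A, LCE1A and LCE1B did not pass the filter on low counts, with means of at most 0.0838 CPM in either group, and LCE7A was not analysed here.

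The desmosome and plakin partners of the scaffold went largely the other way. All 18 listed genes were tested, of which 5 rose and 12 fell, with a median log2 fold change of -0.53. DSC1 and DSG1, desmosomal cadherins of the upper layers to which corneodesmosin is later added, fell from 17.5 ± 2.36 to 2.55 ± 0.687 CPM and from 278 ± 22.6 to 52.3 ± 18 CPM. Their log2 fold changes were -2.78 ± 0.19 and -2.41 ± 0.24 (SE; adjusted p = 2.3e-05 and 0.00014 by edgeR). JUP, a plaque protein gene with the highest TPM of the list over all 6 libraries though not in PBS alone, rose from 1231 ± 26.9 to 1861 ± 81.3 CPM. With library sizes only 3 of these genes were higher, and without PBS replicate 1 the list had 3 higher and 8 lower.

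Of 18 secreted suprabasal and corneodesmosome protease genes 16 were tested, of which 13 rose and 1 fell, with a median of 1.21; 2 genes were lower with library sizes only, and the count was also 2 without HMU replicate 2. The kallikrein proteases KLK13 and KLK10 went from 0.956 ± 0.0528 to 8.15 ± 0.686 CPM and from 168 ± 8.98 to 917 ± 111 CPM. KLK5, which cleaves corneodesmosin, had the highest TPM of the list in both groups and went from 489 ± 14.6 to 745 ± 95.2 CPM (log2 change 0.61 ± 0.095 SE). The genes DMKN and KRTDAP, which lie in a cluster with SBSN, were named for that position after their values were seen. DMKN rose from 191 ± 8.53 to 295 ± 38.5 CPM, and KRTDAP was at 39.97 ± 7.47 and 34.9 ± 7.51 CPM without passing (log2 change -0.20 ± 0.18 SE, adjusted p = 0.39 by edgeR).

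Of 15 suprabasal keratins and mucosal differentiation genes 14 were tested, of which 8 rose and 3 fell, with a median of 0.54. On log2(TPM + 1) 5 were lower, a scale on which 9153 of all 17990 tested genes were called lower. The 3 genes lower with TMM scaling were KRT1, KRT10 and KRT2, keratins of keratinised skin, where 25.3% of all tested genes were lower. KRT1 and KRT2 were named after their values were seen, and KRT2 ran from 3.28 to 7.68 CPM within the PBS libraries. KRT10 fell from 2232 ± 300 to 1010 ± 68.8 CPM (log2 change -1.14 ± 0.11 SE, adjusted p = 0.00011 by edgeR). KRT13, the suprabasal keratin of mucosal epithelia, rose from 36.7 ± 2.83 to 140.4 ± 24.9 CPM (log2 change 1.94 ± 0.13 SE, adjusted p = 2.1e-05 by edgeR). CLCA4 went from 0.699 ± 0.0578 to 2.00 ± 0.606 CPM.

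**Figure D5:**
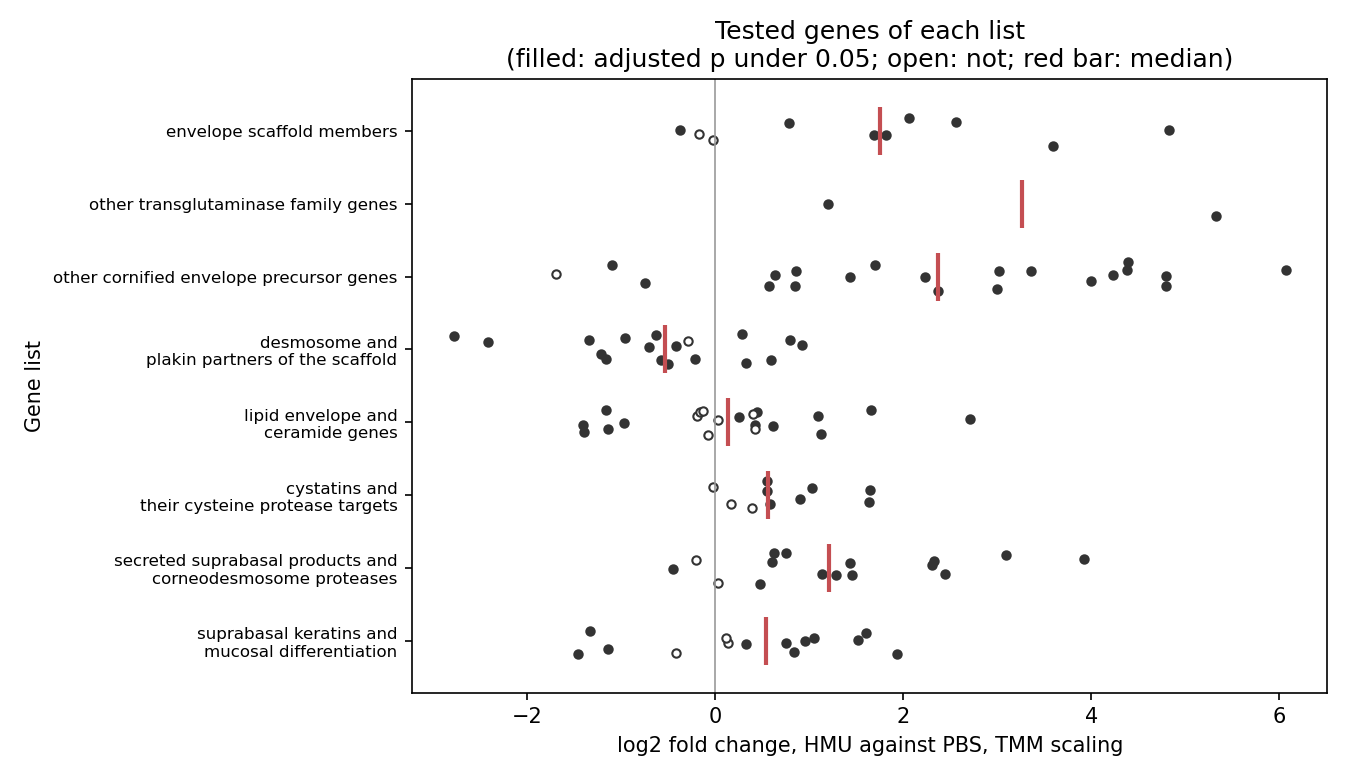
Fitted log2 fold change (HMU against PBS, TMM scaling) of each tested gene by list, with filled points for an adjusted p under 0.05, open points for the rest and a red bar at the list's median. Envelope precursors lie mostly to the right with a median of 2.37, and desmosome and plakin partners mostly to the left with a median of -0.53.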

How the data were processed

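Gene expression was measured by stranded mRNA sequencing in 6 libraries. Read counts per gene, FPKM and TPM come from a single table that the authors deposited: per the file headers its columns are read counts, FPKM and TPM, and the counts are whole numbers with unequal totals, as unnormalised counts are. FPKM and TPM divide by length and library size. Per the submitters' processing notes, the tools included HISAT2 2.1.0 and StringTie 2.1.3b, beside Trimmomatic 0.38 and FastQC 0.11.7, and the build GRCh38; the counting tool, and its treatment of strand and of reads with several matches, are unstated in the sources used here. The table writes HMO where the labels write HMU, and those columns were read as HMU.

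Counts were filtered with filterByExpr, scaled by TMM and tested in R 4.3.3 with edgeR 4.0.16 (glmQLFit with legacy = FALSE, glmQLFTest, group as the only term), with Benjamini-Hochberg adjustment over all 17990 tested genes and a threshold of 0.05. Standard errors are the log2 fold change over the square root of F. CPM and TPM are given per library or as mean ± SD. Ratios were tested by exact permutation in SciPy 1.17.1. Tests were tried on simulated data first. Members and lists were chosen with earlier results of these data known. Named from each list are the 2 called genes of largest change with at least 1 CPM and the gene of highest mean TPM over all 6 libraries, besides all members, neighbours of IVL and genes overlapping a member. Gene positions are RefSeq's on GRCh38, matched by gene ID for 96.3% of genes. Alternatives were DESeq2 1.42.0, limma-voom and limma-trend (limma 3.58.1), other scalings, filters, thresholds and pseudocounts, a block for replicate number, fits without each single library and, added after seeing the data, the legacy fit.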

Additional observations from a re-analysis of the deposited data

How the results depend on the processing

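Of 10 members, 8 kept their direction and their side of the threshold in all 18 alternatives, and 7 members were called higher in each. EVPL and TGM3, not called with TMM scaling, were called lower with library sizes only and on each log2 scale of TPM (pseudocounts 1 and 0.1) and FPKM (1), so that 3 members were lower there. The fitted EVPL value ranged from -0.0931 (without HMU replicate 2) to 0.0182 (without HMU replicate 3) when single libraries were left out, and was 0.0107 without HMU replicate 1. Over all genes, calls higher and lower were 2442 and 7942 with library sizes only, 1975 and 9153 on log2(TPM + 1), 1965 and 9126 on log2(TPM + 0.1) and 2441 and 7612 on log2(FPKM + 1). The higher share of calls was 23.5%, 17.7%, 17.7% and 24.3% there and 49.8% with TMM. At an adjusted p under 0.01, 2967 genes were lower. Leaving out single libraries gave 3395 to 5459 higher and 3382 to 5487 lower genes, and 11 to 17 called desmosome and plakin partners. Lists moved too. With library sizes only, 5 lipid envelope genes were higher and 8 lower (8 and 5 with TMM), and 1 gene of the cystatin list was lower. On that scale 13.6% of all tested genes were higher and 44.1% lower. Without PBS replicate 1, PBS replicate 2 or HMU replicate 1, 5 lipid envelope genes were higher. The causes were not tested. Deviations of same-numbered libraries from their group means had correlations of -0.019, 0.035 and 0.048. With 3 libraries a group these values cannot show whether the samples were handled in pairs. A replicate block gave 4296 higher and 4350 lower genes, and 7 members higher and 1 lower. Among the members, depth limits TGM5 most, with 25 to 41 counts in PBS libraries.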

Other observations

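Lipids bound to the outside of the envelope complete the barrier, and their genes were called in both directions. Of 20 lipid envelope and ceramide genes, all tested, 8 were called higher and 5 lower, with a median log2 fold change of 0.14. Of all tested genes, 25.0% were called higher and 25.3% lower, so the lower count was near that share. FA2H, which hydroxylates the fatty acids of ceramides, went from 1.52 ± 0.114 to 9.95 ± 0.640 CPM (SD, n = 3; log2 change 2.71 ± 0.11 SE, adjusted p = 1.6e-06 by edgeR). UGCG, which adds glucose to ceramide, went from 40.3 ± 1.39 to 127.5 ± 25.0 CPM (log2 change 1.66 ± 0.14 SE). DEGS1, the desaturase that completes ceramide synthesis, had the highest TPM of the list in PBS, though not in HMU libraries, and fell from 129 ± 3.06 to 49.4 ± 2.78 CPM (log2 change -1.39 ± 0.069 SE, adjusted p = 4.3e-06 by edgeR).

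Of 10 cystatins and cysteine protease genes, all tested, 7 rose and 0 fell, against 25.0% and 25.3% of all tested genes. Their median log2 fold change was 0.56. CSTB, which encodes the close relative of cystatin A, went from 211 ± 6.18 to 394 ± 34.0 CPM, a log2 fold change of 0.90 ± 0.078 SE beside 0.79 for CSTA. CTSC, a lysosomal dipeptidyl peptidase gene, went from 127 ± 3.03 to 259 ± 3.08 CPM (log2 change 1.03 ± 0.058 SE).

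The genes whose centred log2 CPM profile over the 6 libraries lay nearest to that of IVL, among 12955 with a mean of at least 1 CPM, were LCN2, SPRR2D, PI3, MMP9 and HCAR3. Their root-mean-square differences from IVL were 0.0798, 0.12, 0.124, 0.174 and 0.179 log2 units. LCN2, which encodes an iron-trapping secreted protein, went from 2.25 ± 0.385 to 68.5 ± 4.83 CPM, and PI3, which encodes the protease inhibitor elafin, a transglutaminase substrate, from 23.1 ± 0.942 to 639 ± 118 CPM. With 2 groups of 3 libraries, likeness mostly reflects a rise of similar size.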
